A study of Homo sapiens with 12 samples.

Results

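The 46 genes described here encode proteins that make ribosomes in the nucleolus, together with 4 enzymes of polyamine and nucleotide synthesis that supply growing cells. They were taken by symbol from a written list of genes for rRNA transcription, rRNA processing and MYC-driven biosynthesis, by a rule that sets no threshold on measured values. Each symbol was found among the 20433 genes listed in the files, and all 46 passed the filter on low counts. RNA-seq was done on H1975, an established human cell line from a non-small cell lung cancer, after 2 days of 0.5 µg/ml doxycycline, which switched on a hairpin RNA in every group. The control libraries carried a control hairpin and are labelled wild type. The libraries of sh-A, sh-B and sh-C are labelled as knockdown of KAT5, the gene of the acetyltransferase TIP60, each with its own hairpin. The series design names sh-B and sh-C as its 2 TIP60 hairpins and does not mention sh-A. Each group had 3 libraries, numbered 1 to 3 for control and sh-C and 3 to 5 for sh-A and sh-B. By the labels all groups shared the cell line, the doxycycline and the expression of a hairpin, and no library without doxycycline was analysed here. The labels do not say whether the cells of a hairpin were 1 clone or whether the libraries came from separate cultures, so a p-value here speaks of the spread among these libraries alone, which may be technical.

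Ribosome assembly starts when RNA polymerase I transcribes the long rRNA precursor in the nucleolus. Small nucleolar ribonucleoproteins then modify the precursor, and a large processome folds and cuts it on the way to the 40S subunit, while a separate set of factors builds the 60S subunit. The transcription factor MYC is known to act on many of these genes, often through the E-box, a short palindrome that MYC and its partner MAX bind. In lung cancer cells, as in other dividing cells, the pathway is active because ribosome number has to keep pace with growth.

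The E-box letters CACGTG, which read the same on both strands, were searched in the reference promoters of the members, from 250 bases before to 50 bases after the annotated start of each gene (RefSeq, build GRCh38.p14). Of the 39 members with an entry, 14 held the motif (35.9%), against 1195 of the 12112 tested genes with an entry (9.87%) and 7.26% of all 35116 promoters of the table. Among members that rose with sh-C, 6 of 14 held it (42.9%), and among the others 8 of 25 (32%). A match describes the reference sequence and is not evidence of a bound site. The 250 bases before the start are shown for the 3 members that rose with sh-C and hold a complete E-box there, because their transcripts are followed through the results. Capitals mark the E-box, and each sequence is on the strand of its gene.

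SRM: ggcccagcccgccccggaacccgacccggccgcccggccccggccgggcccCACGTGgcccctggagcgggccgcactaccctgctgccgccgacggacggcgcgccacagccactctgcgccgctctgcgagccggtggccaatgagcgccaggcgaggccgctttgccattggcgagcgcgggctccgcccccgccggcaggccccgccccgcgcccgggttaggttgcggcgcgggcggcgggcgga

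IMP4: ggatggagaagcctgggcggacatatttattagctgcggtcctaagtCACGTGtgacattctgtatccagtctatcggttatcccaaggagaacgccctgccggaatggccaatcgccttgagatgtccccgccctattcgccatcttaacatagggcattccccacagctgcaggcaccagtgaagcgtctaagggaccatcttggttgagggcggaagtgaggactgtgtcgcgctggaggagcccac

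UTP20: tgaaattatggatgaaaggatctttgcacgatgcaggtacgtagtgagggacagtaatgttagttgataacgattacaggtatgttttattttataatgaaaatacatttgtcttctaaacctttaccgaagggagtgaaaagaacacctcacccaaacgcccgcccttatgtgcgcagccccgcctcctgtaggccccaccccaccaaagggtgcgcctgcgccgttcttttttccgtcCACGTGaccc

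These stretches lie at chr1:11060019-11060268 (minus strand), chr2:130342647-130342896 (plus strand) and chr12:101279855-101280104 (plus strand). The first base of the E-box lay 199 bases before the start in SRM, 203 in IMP4 and 10 in UTP20, and IMP4 holds a second copy after its start that is not shown. SRM encodes spermidine synthase, and IMP4 and UTP20 are parts of the processome that matures the 40S subunit.

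Depth was 15631500 to 28073400 expected counts per library. The labels' cell identity was checked with markers: all 8 markers of epithelial cancer lines were listed, with summed levels of 5359 to 5622 CPM (counts scaled to library size) in control, 3269 to 3639 in sh-A, 4507 to 4803 in sh-B and 5747 to 6121 in sh-C, while the summed levels of 7 fibroblast and 7 leukocyte markers stayed at 14.2 to 39.3 CPM in each library, those of 5 endothelial markers stayed at 1.41 to 14.8 CPM, and the T cell marker CD3E was not listed in any library. KAT5 itself fell with each hairpin, from 28.9 ± 2.46 CPM (SD, n = 3) to 19.4 ± 0.626 with sh-A, 13.6 ± 0.988 with sh-B and 7.92 ± 0.535 with sh-C. MYC stood at 358 ± 15.5 CPM in control, 389.8 ± 149 with sh-A, 673 ± 210.4 with sh-B and 1246 ± 28 with sh-C. It rose with sh-C (log2 1.80, SE 0.24, edgeR adjusted p = 0.00278) and with sh-B (0.91, SE 0.24, adjusted p = 0.0125, and no longer passing when control 3 or sh-B 3 was omitted, at up to 0.052), but did not pass the test with sh-A (0.12, SE 0.24, adjusted p = 0.738). A set of 8 transcripts, chosen on these libraries because they appear mostly in sh-A, summed to 378, 59.5 and 60.3 CPM in sh-A 3, 4 and 5 and to at most 0.178 CPM in each library of the other groups. With these transcripts and the lower epithelial markers the sh-A libraries differed from the other groups in more than KAT5. Whether sh-A is otherwise the same cells as the other groups, as its labels say, was not tested, nor was the part of these transcripts in its results.

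Libraries of 1 group differed in the members, most of all in sh-A and sh-B. In sh-A 3, 45 of the 46 genes lay above the mean of sh-A 4 and 5, by a median of 0.37 on the log2 scale. In sh-B 3, 42 lay above the mean of sh-B 4 and 5, by a median of 0.38. In sh-C 1, 31 lay above the mean of sh-C 2 and 3, by a median of 0.10, with a range of −0.57 to 0.56. By the median that offset was smaller in size than that of control 3. The controls differed from their own mates by medians of 0.05, 0.09 and −0.13 for control 1, 2 and 3, with 10 members above in control 3. Their ranges, −0.11 to 0.17, −0.31 to 0.38 and −0.29 to 0.15, were narrower than that of sh-C 1. Over all tested genes the differences of sh-A 3, sh-B 3 and sh-C 1 had medians of 0.01, 0.00 and −0.01. The cause of these offsets was not tested. The counts of calls against control and between hairpins are also given from a fit with sh-A 3, sh-B 3 and sh-C 1 omitted. That choice was made with earlier results of these libraries known. As most members stood high in sh-A 3 and sh-B 3, omitting these lowers their fold changes by itself. Falls in that fit describe the libraries kept and are no separate evidence. That fit also leaves sh-A and sh-B with libraries 4 and 5, numbers that control and sh-C lack. Hairpin and library number cannot be told apart in those comparisons. Summed over the members, the level was 10298 to 12120 CPM in control, 13425, 9914 and 9400 CPM in the libraries 3, 4 and 5 of sh-A, 16527, 11468 and 11471 CPM in sh-B 3, 4 and 5, and 16720, 13939 and 13459 CPM in sh-C 1, 2 and 3. The 3 sh-C libraries were thus all above the control range, while in sh-A and sh-B only library 3 was, and sh-A 4 and 5 were below it. NPM1 and NCL, not called against control with all 12 libraries, were the largest parts of these sums. They made 2339 and 2386 of 11449 CPM in control 1, and 3951 and 3701 of 16720 CPM in sh-C 1.

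**Figure D1:**
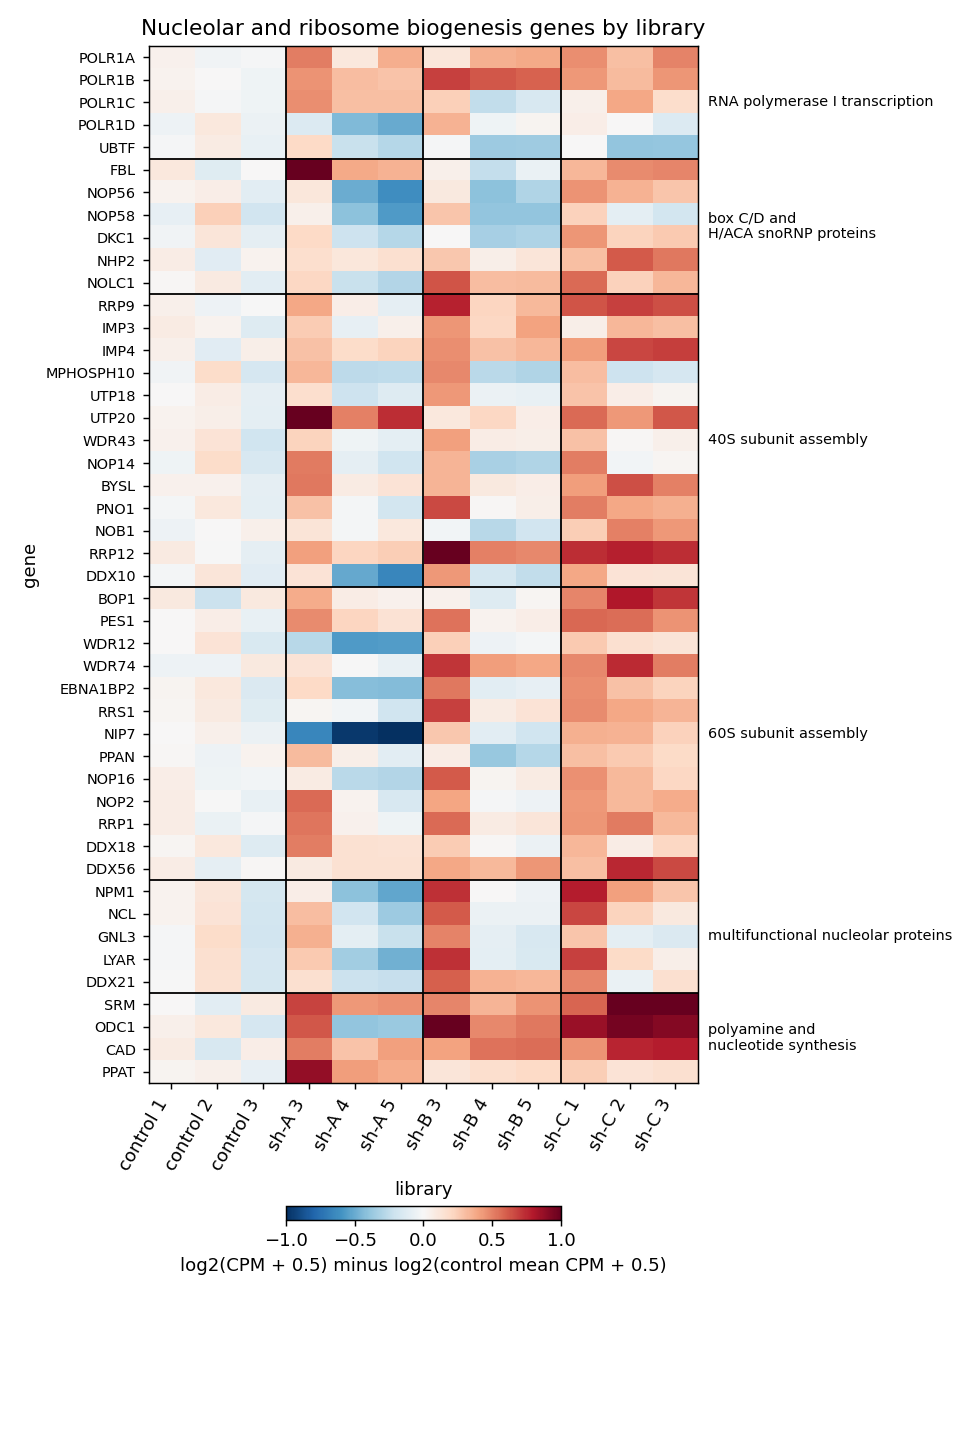
Level of each of the 46 genes (rows, grouped by role) in each of the 12 libraries (columns), as log2(CPM + 0.5) minus the log2 of the control mean, with the colour scale ending at −1 and 1. The sh-C columns are red for most genes, with library medians of 0.29 to 0.44, and sh-A 3 and sh-B 3 are redder than the other libraries of their groups.

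Levels between genes were compared in FPKM, fragments scaled by gene length and library size. In control cells the highest means were those of NPM1 (1619 FPKM) and NCL (856 FPKM), the abundant nucleolar chaperones nucleophosmin and nucleolin. NOP56, a core protein of the box C/D ribonucleoproteins, came next at 167 FPKM. The lowest was UTP20 at 6.84 FPKM, which still lay above 61.1% of the genes listed. NPM1 has many near-identical pseudogene copies, and PPAN lies in a read-through transcript with its neighbour, so reads of these genes may be split or shared and their values are uncertain. The library protocol does not mark strand, so reads of overlapping antisense genes cannot be told apart.

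In the sh-C libraries, which had the lowest KAT5 level, 16 of the 46 genes rose and 0 fell. At an unadjusted p below 0.05 edgeR had 26 higher and 0 lower, and DESeq2 and limma also called 0 lower. Counts at an unadjusted p or by DESeq2 or limma, here and below, are given without the share of all tested genes. Over all 15592 tested genes 17% were called, 9.79% as higher and 7.16% as lower, so that the members' share of higher calls, 34.8%, was above the background. This background, here and below, was not matched for level. In control each member lay above at least 61.1% of the genes listed, and the part of level in the shares was not tested. The median log2 fold change of the members was 0.37, and that of all tested genes was 0. All 3 sh-C libraries lay above all 3 control libraries in 31 members, against 23.1% of all tested genes, and below them in 0. When sh-A 3, sh-B 3 and sh-C 1 were omitted, 31 rose and 1 fell (UBTF), the background was 42.8% (22.5% higher, 20.3% lower), and the median was 0.32. The count of 16 stayed 16 without sh-C 1 alone, was 10 without control 2 or without sh-C 3 and 11 without control 3 or sh-C 2, and 9 of the 16 calls were kept whichever single library was left out. Counts under single omissions, here and below, are given without the share of all tested genes. A change in them can thus be shared by all genes.

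With sh-B, 12 members rose and 0 fell. At an unadjusted p below 0.05 edgeR had 14 higher and 0 lower, and DESeq2 and limma also called 0 lower. The background was 30.1% called and 15% higher, so the members' 26.1% was below the share of all calls and above that of higher calls. Their median was 0.17, against 0.00 for all tested genes, and 17 members had all 3 libraries above the controls, where 24.7% of all tested genes did. With sh-A 3, sh-B 3 and sh-C 1 omitted, 14 rose and 9 fell, the background was 47% (23.6% higher, 23.4% lower), and the median was 0.02. The count was 7 without control 1, 4 without control 2, 5 without control 3 and 7 without sh-B 5, and 4 of the 12 calls were kept under each single omission.

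With sh-A, 7 members rose and 3 fell. The background was 26.7%, with 14.4% higher and 12.3% lower, so the members' 21.7% did not exceed it. At an unadjusted p below 0.05 edgeR had 12 higher and 3 lower, while DESeq2 called 3 lower and limma 2. The median was 0.06, against 0.02 for all tested genes, and 15 members had all 3 libraries above the controls (23% of all tested genes) and 3 below (20.7%). In the fit that omitted sh-A 3, sh-B 3 and sh-C 1, 11 rose and 17 fell with a background of 46% (23.8% higher, 22.2% lower), and the median was −0.07. The count was 5 without control 2, and 5 of the 10 calls were kept under each single omission. All of these comparisons share the same 3 control libraries, so a call made in several of them is not independent support. How many of all tested genes were called in 1, 2 or 3 comparisons was not counted, so the following counts have no background. POLR1B, SRM and CAD rose in each of the 3 comparisons, 8 members rose in 2, 10 rose in 1, 3 fell in 1, and 22 were not called in any. In the fit with sh-A 3, sh-B 3 and sh-C 1 omitted, 6 rose in each of the 3 (POLR1A, POLR1B, IMP4, RRP12, SRM and CAD), 9 rose in 2 and 7 in 1, 9 fell in at least 1 and rose in none, 11 rose with some hairpins and fell with others, and 4 were not called.

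**Figure D2:**
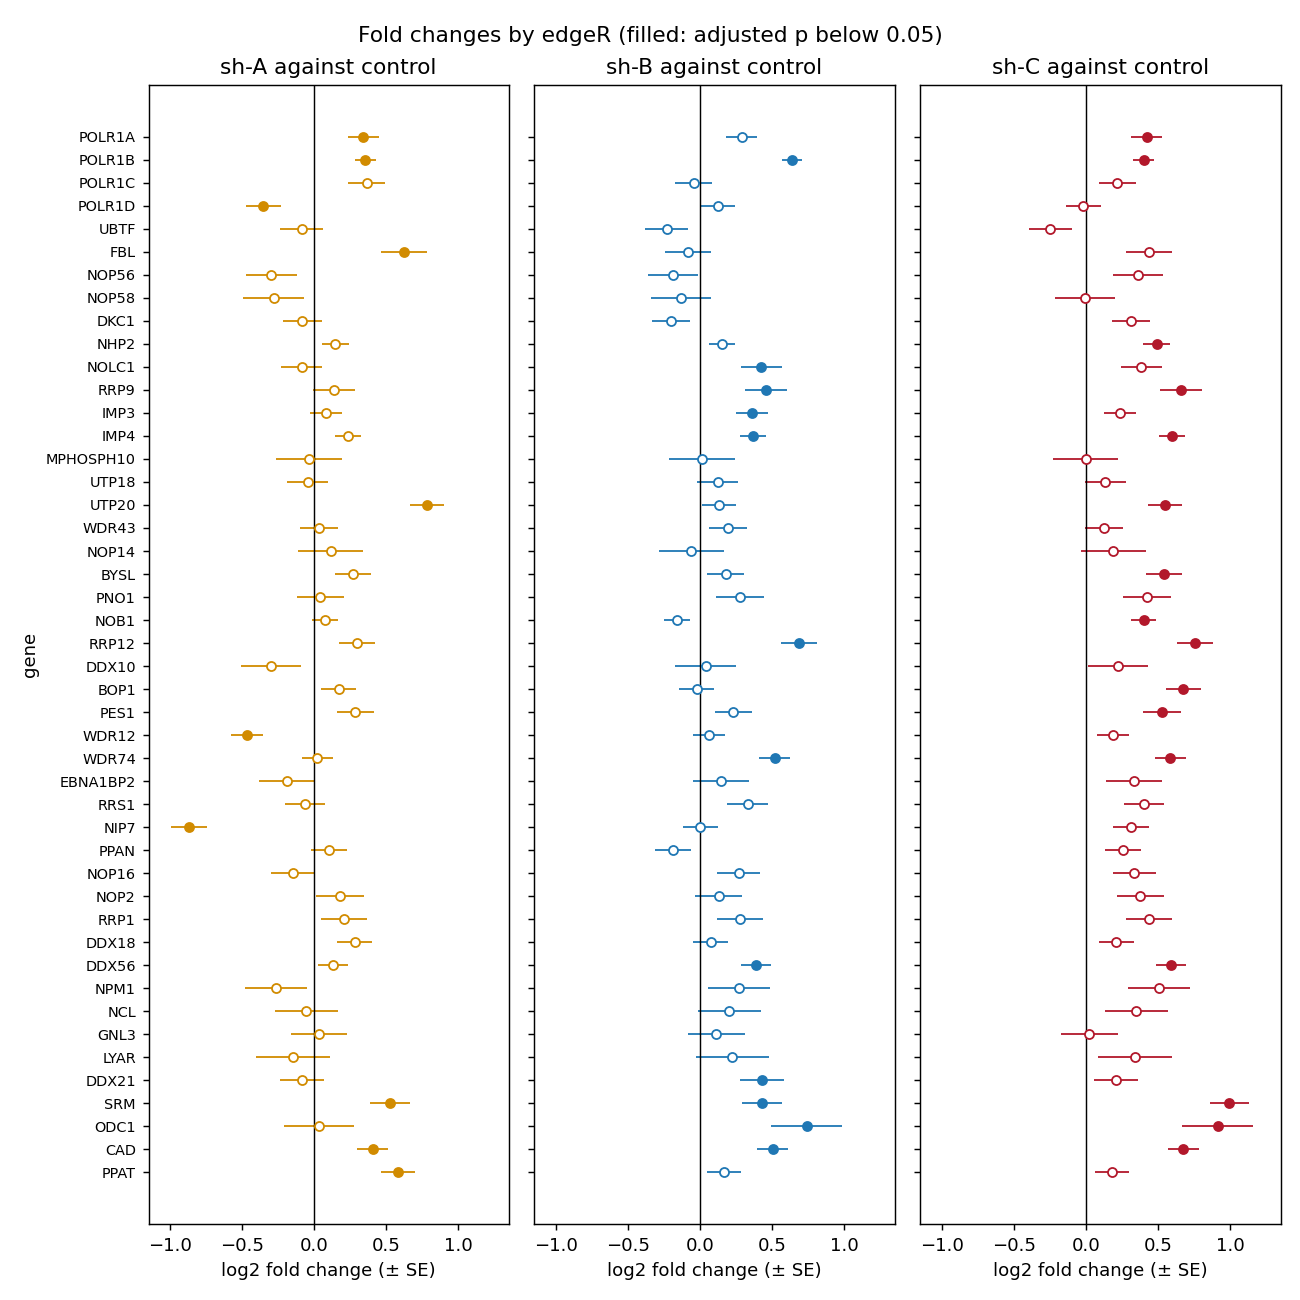
Log2 fold change against control (horizontal axis, point ± SE, n = 3 against 3) for each gene, 1 panel per hairpin, with filled points where the edgeR adjusted p was below 0.05. Filled points number 10, 12 and 16 from left to right, with 3 filled points below 0 with sh-A and 0 with sh-B and sh-C.

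The RNA polymerase I genes include the subunits POLR1A, POLR1B, POLR1C and POLR1D and the rDNA-binding factor UBTF. POLR1B, the second largest subunit, stood at 69.7, 68.4 and 66.0 CPM in the control libraries, at 93.3, 84.6 and 82.8 CPM in sh-A 3, 4 and 5, at 109.5, 105 and 103 CPM in sh-B 3, 4 and 5, and at 92.0, 84.8 and 92.8 CPM in sh-C 1, 2 and 3. The control libraries did not overlap with any of the 9 knockdown libraries. POLR1B rose by 0.35 with sh-A (SE 0.07, adjusted p = 0.00365), 0.64 with sh-B (SE 0.07, adjusted p = 7e-05) and 0.40 with sh-C (SE 0.07, adjusted p = 0.00521) on the log2 scale. These 3 calls were kept without any single library. The largest subunit, POLR1A, rose with sh-A (0.34, SE 0.11, adjusted p = 0.0341) and with sh-C (0.42, SE 0.11, adjusted p = 0.0213), but the first call did not survive omission of any library except sh-A 4 (up to 0.108), nor the second that of any control or of sh-C 3 (up to 0.089). POLR1D, a subunit shared with RNA polymerase III, fell with sh-A (−0.35, SE 0.12, adjusted p = 0.0488), but the call held only when no library or sh-A 3 was omitted, and adjusted p reached 0.152 otherwise. UBTF was at 238 to 265 CPM in control and at 251, 190.0 and 192 CPM in sh-C 1, 2 and 3 (−0.25, SE 0.15, adjusted p = 0.272). Of these 5 genes 2 rose and 1 fell with sh-A, 1 rose with sh-B and 2 rose with sh-C. Of all tested genes 14.4%, 15% and 9.79% rose with sh-A, sh-B and sh-C, and 12.3% fell with sh-A. After omission of sh-A 3, sh-B 3 and sh-C 1, 3 rose and 2 fell with sh-A. In that fit 2 rose and 1 fell with sh-B, and 3 rose and 1 fell with sh-C. For the counts of that fit, here and in the other roles, 23.8%, 23.6% and 22.5% of all tested genes rose with sh-A, sh-B and sh-C. Those that fell were 22.2%, 23.4% and 20.3%. In that fit UBTF fell with every hairpin, by 0.26 with sh-A, 0.36 with sh-B and 0.39 with sh-C. The omitted libraries sh-A 3, sh-B 3 and sh-C 1 had UBTF above their mates by 0.45, 0.35 and 0.39 on the log2 scale.

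Among the 6 proteins of the small nucleolar ribonucleoproteins, 1 was called higher with each hairpin and 0 fell. The calls were FBL with sh-A, NOLC1 with sh-B and NHP2 with sh-C, 1 of the 6 each time. This share of 16.7% was near the 14.4% and 15% of all tested genes that rose with sh-A and sh-B. With sh-C 9.79% of all tested genes rose. FBL, the methyltransferase fibrillarin, was at 72.7, 61.8 and 67.7 CPM in control, and sh-A 3, 4 and 5 had 138, 87.7 and 85.9 CPM. All sh-A libraries were above the controls, with sh-A 3 far above the other two. FBL rose with sh-A by 0.62 (SE 0.16, adjusted p = 0.0124), by 0.36 without sh-A 3, and the call was lost without control 2 (adjusted p = 0.0578, with 0.0013 to 0.0578 over all alternatives run). In sh-B 3, 4 and 5 FBL was at 69.999, 57.0 and 64.3 CPM, within or below the control range (−0.08, SE 0.16), and in sh-C 1, 2 and 3 at 84.9, 93.6 and 95.0 CPM, above it (0.43, SE 0.16, adjusted p = 0.08). NHP2, a core protein of the box H/ACA particles that guide pseudouridine formation, rose from 92.8, 81.6 and 90.7 CPM in control to 109, 135 and 128 CPM in sh-C 1, 2 and 3 (0.49, SE 0.09, adjusted p = 0.00647). With sh-A and sh-B it lay at 91.9 to 106 CPM and did not pass the test. NOLC1, a chaperone of these particles named here after its values were seen, rose with sh-B (0.43, SE 0.14, adjusted p = 0.0382), and the call was lost without any one of the 6 libraries, at up to 0.134. With sh-C its fold change was 0.38 (SE 0.14, adjusted p = 0.0795), with all sh-C libraries above the controls. NOLC1 was not called between sh-C and sh-B (−0.04, SE 0.14, adjusted p = 0.864), nor FBL between sh-C and sh-A (−0.19, SE 0.16, adjusted p = 0.382). NOLC1 and FBL were called between sh-B and sh-A, and NHP2 between sh-C and each other hairpin.

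NOP56 did not pass the test against control with any hairpin. It was at 356, 363 and 322 CPM in control, at 375, 247 and 226 CPM in sh-A 3, 4 and 5, at 371, 261 and 282 CPM in sh-B 3, 4 and 5, and at 475, 441 and 421 CPM in sh-C 1, 2 and 3. The sh-C libraries were all above the controls, and sh-A and sh-B fell into library 3 above the control range and libraries 4 and 5 below it. The fold changes were −0.30 (SE 0.18), −0.19 (SE 0.17) and 0.36 (SE 0.17), with adjusted p = 0.234, 0.461 and 0.174. In the fit that omitted sh-A 3, sh-B 3 and sh-C 1, NOP56 fell by 0.56 with sh-A and by 0.35 with sh-B and rose by 0.31 with sh-C. In that fit 4 of the 6 proteins fell with sh-A and 1 rose, 3 fell and 1 rose with sh-B, and 5 rose with sh-C.

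The 13 members of 40S subunit assembly held 6 that rose with sh-C, 4 with sh-B and 1 with sh-A, and none fell. These shares were 46.2%, 30.8% and 7.69%, against 9.79%, 15% and 14.4% of all tested genes. The share with sh-A was thus below the background. When sh-A 3, sh-B 3 and sh-C 1 were omitted, the numbers were 8 rising with sh-C, 4 rising and 4 falling with sh-B, and 3 rising and 2 falling with sh-A. RRP12, which is needed for export of the pre-ribosomal subunits, was at 86.4, 80.8 and 76.3 CPM in control, at 108, 94.5 and 96.4 CPM in sh-A 3, 4 and 5, at 164, 115 and 113 CPM in sh-B 3, 4 and 5, and at 135, 139.8 and 136 CPM in sh-C 1, 2 and 3. Each knockdown library exceeded the highest control. RRP12 rose with sh-C by 0.76 (SE 0.13, adjusted p = 0.00416) and with sh-B by 0.69 (SE 0.13, adjusted p = 0.00162), while with sh-A its fold change of 0.30 (SE 0.13, adjusted p = 0.104) did not pass.

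IMP4, whose promoter is printed above, was at 70.8, 63.0 and 71.0 CPM in control and rose to 91.2, 109 and 110.5 CPM in sh-C 1, 2 and 3 (0.60, SE 0.09, adjusted p = 0.00312) and to 94.4, 83.7 and 86.2 CPM in sh-B 3, 4 and 5 (0.37, SE 0.09, adjusted p = 0.00924). In sh-A 3, 4 and 5 it was at 83.7, 77.5 and 80.0 CPM (0.23, SE 0.09, adjusted p = 0.0754). No knockdown library overlapped with the controls. The sh-B call was lost without control 2 (adjusted p = 0.0506, with 0.000514 to 0.0506 over all alternatives run). Its partner in the U3 particle, IMP3, was at 33.5 to 38.8 CPM in control and 42.2 to 49.7 CPM in sh-B (0.36, SE 0.11, adjusted p = 0.0293, lost at up to 0.132 without control 2, control 3, sh-B 3 or sh-B 5). RRP9, a U3-specific protein, rose from 48.7, 45.3 and 46.6 CPM in control to 72.8, 75.7 and 73.6 CPM in sh-C 1, 2 and 3 (0.66, SE 0.14, adjusted p = 0.0112, lost at up to 0.051 without control 2 or sh-C 2). With sh-B it was at 80.0, 54.4 and 58.7 CPM, so that sh-B 3 was well above its mates (0.46, SE 0.14, adjusted p = 0.0305), and the fold change was 0.27 without sh-B 3. That call was lost at up to 0.118 without any control or without sh-B 3.

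UTP20, the large helical scaffold protein of the processome, showed another pattern. It was at 63.7, 64.6 and 57.9 CPM in control, at 128, 88.4 and 104 CPM in sh-A 3, 4 and 5, at 66.9, 71.6 and 65.0 CPM in sh-B 3, 4 and 5, and at 92.3, 83.9 and 96.0 CPM in sh-C 1, 2 and 3. The sh-A and sh-C libraries were all above the sh-B and control libraries. UTP20 rose with sh-A by 0.79 (SE 0.12, adjusted p = 0.000604) and with sh-C by 0.55 (SE 0.12, adjusted p = 0.011, lost at up to 0.0553 without control 3 or sh-C 3), and with sh-B its fold change was 0.13 (SE 0.12, adjusted p = 0.457). BYSL and NOB1, late 40S factors named here after their values were seen, rose with sh-C by 0.54 (SE 0.13, adjusted p = 0.0148) and 0.40 (SE 0.09, adjusted p = 0.0127). Each of these calls was lost without 4 of the 6 libraries, at up to 0.0748 and 0.0672. The helicase DDX10 and MPHOSPH10, UTP18, WDR43, NOP14 and PNO1 were not called with any hairpin, with fold changes between −0.30 and 0.42.

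**Figure D3:**
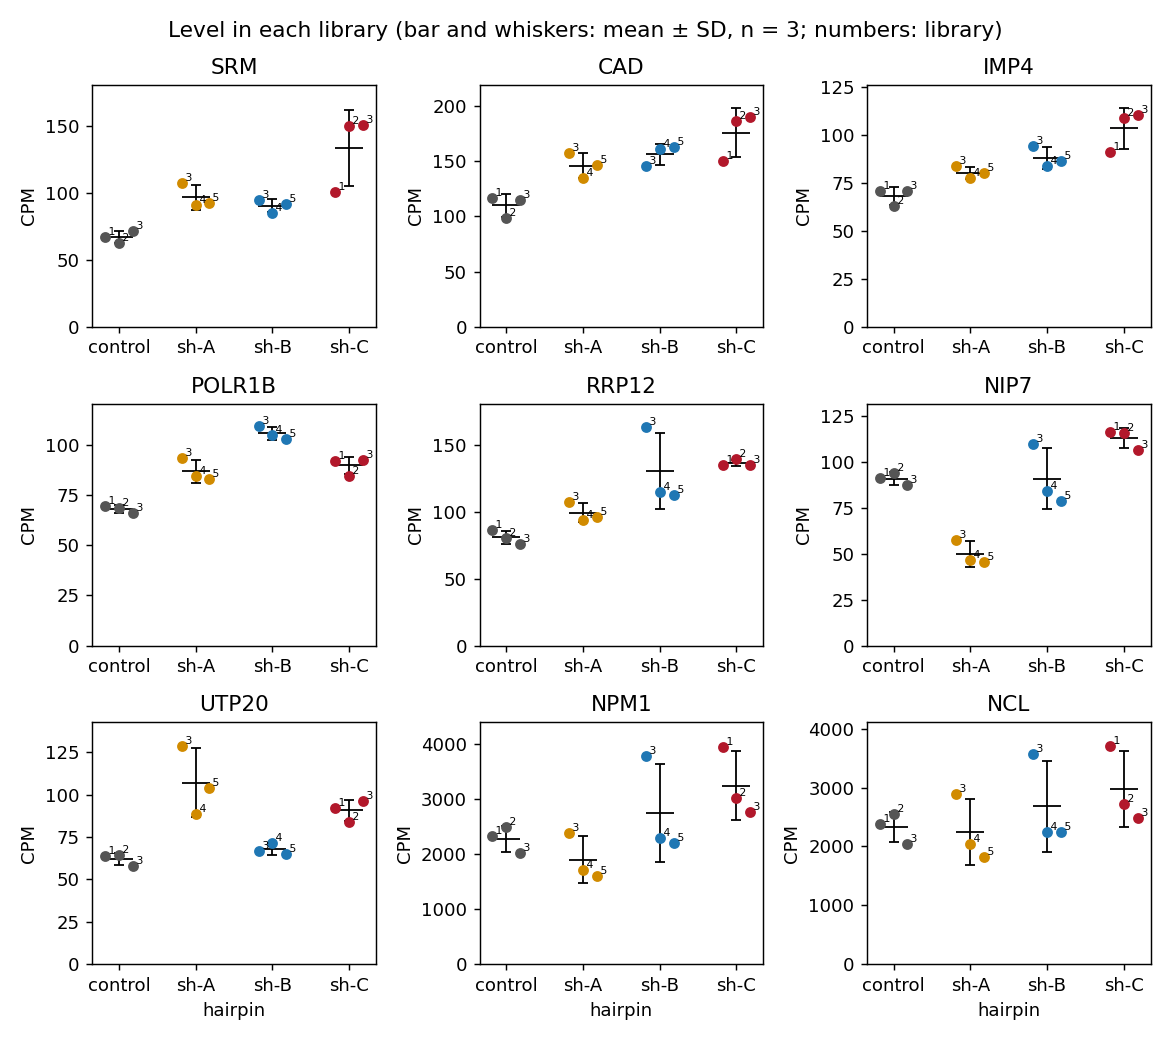
CPM of 9 genes in each library (points, labelled with the library number), with the mean as a horizontal bar and whiskers of ± SD (n = 3), by hairpin. SRM reaches 149 and 151 CPM in sh-C 2 and 3, NIP7 lies at 45.2 to 57.7 CPM in sh-A, and NPM1 and NCL are highest in library 3 of sh-A and sh-B and library 1 of sh-C within those groups.

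Of the 13 members of 60S subunit assembly, 4 rose with sh-C, 2 with sh-B and 0 with sh-A, where 2 fell. The rises were 30.8% with sh-C and 15.4% with sh-B, where 9.79% and 15% of all tested genes rose. The share with sh-B was thus near the background. The falls with sh-A were 15.4%, where 12.3% of all tested genes fell and 14.4% rose. With sh-A 3, sh-B 3 and sh-C 1 omitted, 11 rose with sh-C, 2 rose and 1 fell with sh-B, and 1 rose and 4 fell with sh-A. NIP7, a factor of pre-60S particles, stood at 90.9, 94.1 and 87.1 CPM in control, at 57.7, 46.3 and 45.2 CPM in sh-A 3, 4 and 5, at 109, 84.2 and 78.8 CPM in sh-B 3, 4 and 5, and at 116, 115 and 107 CPM in sh-C 1, 2 and 3. The sh-A libraries were below all others, the sh-B libraries lay on both sides of the controls and the sh-C libraries lay above the controls. NIP7 fell with sh-A by 0.87 (SE 0.13, adjusted p = 0.000454), and its fold change was 0.00 with sh-B (SE 0.12) and 0.31 with sh-C (SE 0.12, adjusted p = 0.0992).

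WDR12, which forms the PeBoW complex with PES1 and BOP1, was at 66.2, 72.4 and 59.1 CPM in control, and sh-A 3, 4 and 5 had 54.2, 44.3 and 44.6 CPM. It fell with sh-A by 0.47 (SE 0.11, adjusted p = 0.00821), with sh-A 3 nearest to the controls. In sh-B and sh-C it was at 63.6 to 79.1 CPM and not called. BOP1 moved in sh-C, from 75.9, 60.8 and 75.6 CPM in control to 99.6, 124 and 116 CPM in sh-C 1, 2 and 3 (0.68, SE 0.12, adjusted p = 0.00506). With sh-A and sh-B it was at 64.6 to 91.7 CPM, overlapping the controls. PES1, the third partner, named here after its values were seen, rose with sh-C from 305 to 337 CPM in control to 439 to 479 CPM (0.53, SE 0.13, adjusted p = 0.0189, not passing when any library except sh-C 1 was omitted, at up to 0.077).

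WDR74, which acts in the remodelling of early 60S particles, stood at 49.9, 50.02 and 55.2 CPM in control, at 57.0, 51.5 and 49.0 CPM in sh-A 3, 4 and 5, at 85.2, 69.3 and 67.8 CPM in sh-B 3, 4 and 5, and at 72.2, 86.8 and 73.8 CPM in sh-C 1, 2 and 3. WDR74 rose with sh-B (0.52, SE 0.11, adjusted p = 0.00362) and with sh-C (0.59, SE 0.11, adjusted p = 0.00581), whereas sh-A overlapped with control (0.02, SE 0.11). The helicase DDX56 was at 136, 121 and 129.8 CPM in control, at 169, 162 and 175 CPM in sh-B 3, 4 and 5 and at 159, 218 and 204 CPM in sh-C 1, 2 and 3. DDX56 rose with sh-C by 0.59 (SE 0.10, adjusted p = 0.00506) and with sh-B by 0.39 (SE 0.10, adjusted p = 0.0142, lost at up to 0.066 without control 2, control 3 or sh-B 5). The sh-A libraries, at 137, 143 and 144 CPM, were just above the controls and not called (0.13, SE 0.10). EBNA1BP2, RRS1, PPAN, NOP16, NOP2, RRP1 and DDX18 were not called with any hairpin, and with sh-C their fold changes were 0.21 to 0.44.

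The 5 multifunctional nucleolar proteins had 0 calls by edgeR with sh-A and sh-C (0 and 1 at an unadjusted p below 0.05). With sh-B 1 was called (20%, where 15% of all tested genes rose), DDX21, a helicase of rRNA transcription and processing. DDX21 rose with sh-B by 0.43 (SE 0.15, adjusted p = 0.0494), and leaving out any one of the 6 libraries lost this call, at up to 0.179. NPM1 was at 2339, 2494 and 2028 CPM in control, at 2394, 1717 and 1596 CPM in sh-A 3, 4 and 5, at 3787, 2288 and 2203 CPM in sh-B 3, 4 and 5 and at 3951, 3033 and 2766 CPM in sh-C 1, 2 and 3. Within each hairpin group 1 library, sh-A 3, sh-B 3 or sh-C 1, was well above the other two. Its fold changes of −0.27, 0.27 and 0.51 (SE 0.22 each) did not pass, with adjusted p = 0.397, 0.384 and 0.124. NCL followed the same libraries, at 2884, 2037 and 1815 CPM in sh-A, 3573, 2237 and 2238 CPM in sh-B and 3701, 2712 and 2490.3 CPM in sh-C, against 2386, 2558 and 2047 CPM in control. Its fold changes were −0.05, 0.20 and 0.35 (SE 0.22 each). In the fit that omitted sh-A 3, sh-B 3 and sh-C 1, 4 of the 5 fell with sh-A, 1 rose with sh-B and 1 rose with sh-C. The falls with sh-A were 0.47 for NPM1, 0.41 for LYAR, 0.28 for NCL and 0.22 for DDX21, DDX21 rose with sh-B by 0.34, and NPM1 rose with sh-C by 0.34. LYAR and GNL3 are nucleolar proteins of proliferating cells. With all 12 libraries neither was called with any hairpin.

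The enzymes of polyamine and nucleotide synthesis rose most often for their number, 3 of 4 with each hairpin. Of all tested genes 14.4%, 15% and 9.79% rose with sh-A, sh-B and sh-C. After omission of sh-A 3, sh-B 3 and sh-C 1, 3 of 4 rose with sh-C, 4 with sh-B, and with sh-A 3 rose and ODC1 fell. SRM was at 67.4, 62.4 and 71.4 CPM in control, at 107, 90.5 and 92.1 CPM in sh-A 3, 4 and 5, at 94.3, 85.0 and 91.6 CPM in sh-B 3, 4 and 5 and at 101, 149 and 151 CPM in sh-C 1, 2 and 3. Every knockdown library was above the controls, and sh-C 2 and 3 were above sh-C 1. SRM rose with sh-C by 0.99 (SE 0.14, adjusted p = 0.00278), a 1.99-fold difference, and by 1.16 without sh-C 1. It rose with sh-A by 0.53 (SE 0.14, adjusted p = 0.0135, lost at 0.0623 without control 2) and with sh-B by 0.43 (SE 0.14, adjusted p = 0.0331, lost without any one of the 6 libraries at up to 0.12).

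CAD, the enzyme of the first steps of pyrimidine synthesis, was at 117, 98.4 and 115 CPM in control, at 157, 135 and 146 CPM in sh-A 3, 4 and 5, at 145, 161 and 163 CPM in sh-B 3, 4 and 5, and at 151, 187 and 190.3 CPM in sh-C 1, 2 and 3. No knockdown library overlapped with the controls. CAD rose by 0.41 with sh-A (SE 0.11, adjusted p = 0.0143, lost at 0.0735 without control 2), 0.51 with sh-B (SE 0.11, adjusted p = 0.00398) and 0.67 with sh-C (SE 0.11, adjusted p = 0.00372). PPAT, which begins purine synthesis, was at 56.5, 57.4 and 52.2 CPM in control, against 102, 74.0 and 71.8 CPM in sh-A 3, 4 and 5, and rose with sh-A (0.58, SE 0.12, adjusted p = 0.0035). In sh-B and sh-C it was at 60.3 to 65.8 CPM, above the controls but not called (0.17 and 0.18, SE 0.12 each). ODC1, the enzyme before SRM in polyamine synthesis, named here after its values were seen, was at 293, 304 and 251 CPM in control, 434, 215 and 219 CPM in sh-A 3, 4 and 5, 615, 394 and 408 CPM in sh-B 3, 4 and 5 and 515, 550.0 and 533 CPM in sh-C 1, 2 and 3. It rose with sh-C (0.92, SE 0.25, adjusted p = 0.0262, not passing when any library except sh-C 1 was omitted, at up to 0.1) and with sh-B (0.74, SE 0.24, adjusted p = 0.0383, not passing when a control or sh-B 3 was omitted, at up to 0.153). With sh-A the libraries lay on both sides of the controls (0.03, SE 0.24).

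**Figure D4:**
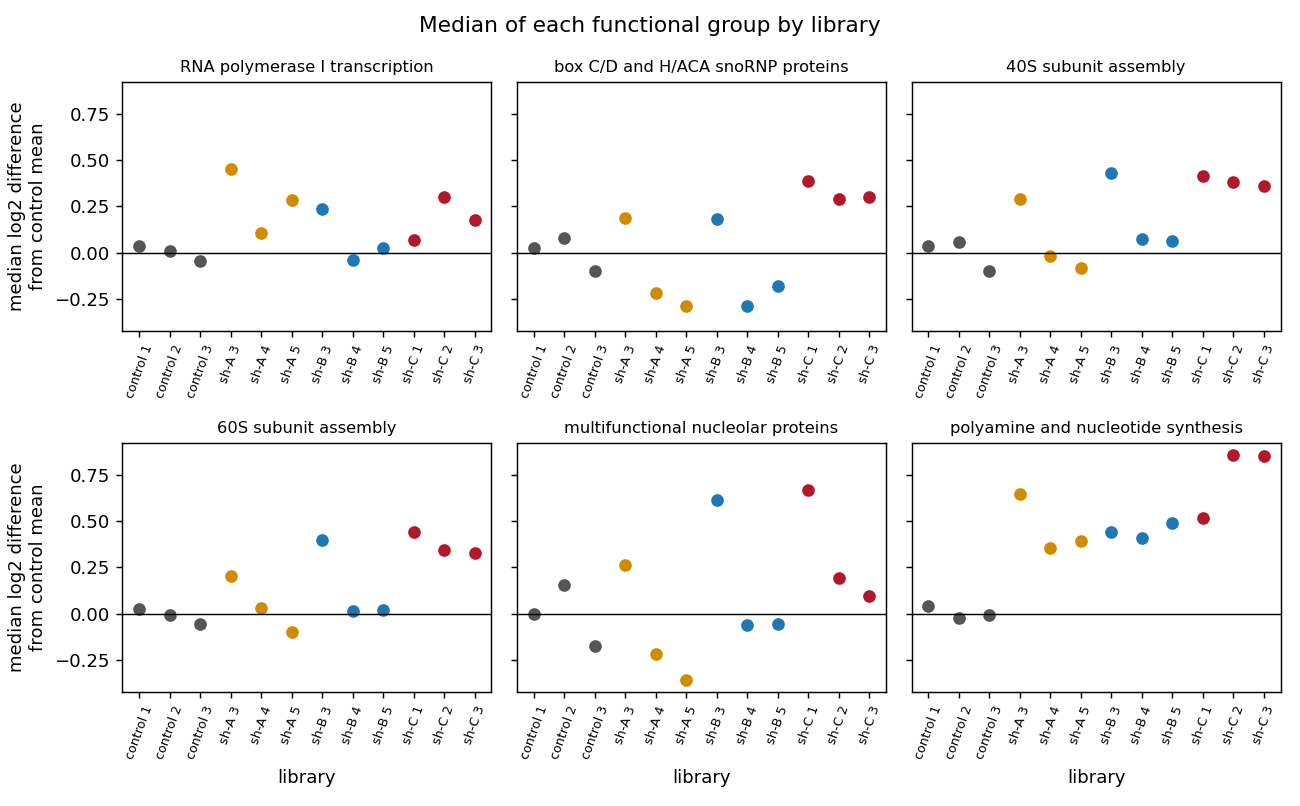
Median over the genes of each role of the log2 difference from the control mean (vertical axis), in each library (horizontal axis, coloured by hairpin). The median of the 4 polyamine and nucleotide genes lies above the controls in all 9 knockdown libraries, although ODC1 by itself does not. The median of the 5 multifunctional proteins lies at 0.67 in sh-C 1 and at 0.19 and 0.10 in sh-C 2 and 3.

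The hairpins were also compared with one another, which tests directly whether their levels differ. Between sh-B and sh-A 16 members were called, 11 higher in sh-B and 5 lower, where 47.5% of all tested genes were called, 22.2% higher and 25.3% lower. With the library number as a block 26 members were called, 19 higher and 7 lower, where 49.2% of all genes in that fit were called, 24.2% higher and 25.1% lower. NIP7 differed by 0.87 (SE 0.13, adjusted p = 0.000132), WDR12 by 0.53 (SE 0.11, adjusted p = 0.00181) and WDR74 by 0.50 (SE 0.11, adjusted p = 0.00233), all higher in sh-B. UTP20 was lower in sh-B by a log2 difference of −0.66 (SE 0.12, adjusted p = 0.00065), and so was FBL by −0.70 (SE 0.16, adjusted p = 0.00304). Of the 16 calls 9 were kept without any single library, and 26 were made with sh-A 3, sh-B 3 and sh-C 1 omitted, 20 higher and 6 lower, with a background of 56.9% (27.4% higher, 29.4% lower).

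Between sh-C and sh-A 20 members were called, 19 higher in sh-C and 1, PPAT, lower, against a background of 35.3%, with 17.4% higher and 17.9% lower. In order of adjusted p, NIP7 differed by 1.18 (SE 0.13, adjusted p = 3.97e-05), followed by WDR12 (0.65, SE 0.11, adjusted p = 0.000824), WDR74 (0.56, SE 0.11, adjusted p = 0.00182), DDX56 (0.45, SE 0.10, adjusted p = 0.00508) and BOP1 (0.51, SE 0.12, adjusted p = 0.00609). By size, NIP7 was followed by ODC1 (0.88, SE 0.25, adjusted p = 0.0148) and NPM1 (0.77, SE 0.22, adjusted p = 0.0154), whose spread between libraries was larger. The count ranged from 11 without sh-A 5 to 31 without sh-A 3, and was 13 without sh-A 4 or sh-C 2. The background of these single omissions is not given, here or for sh-C against sh-B, so such changes can be shared by all genes. When sh-A 3, sh-B 3 and sh-C 1 were omitted, the count was 35, 34 of them higher in sh-C, with a background of 52.2% (27% higher, 25.2% lower).

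Between sh-C and sh-B 11 members were called, 10 higher in sh-C and 1, POLR1B, lower, against a background of 27.9%, with 14.9% higher and 13% lower. NOB1 differed by 0.56 (SE 0.09, adjusted p = 0.000711), BOP1 by 0.70 (SE 0.12, adjusted p = 0.00111), SRM by 0.57 (SE 0.14, adjusted p = 0.00856), the pseudouridine synthase DKC1 by 0.51 (SE 0.13, adjusted p = 0.0132) and NHP2 by 0.34 (SE 0.09, adjusted p = 0.0163). The first 3 of these were kept under each single omission. DKC1 was lost without sh-B 4 or 5 at up to 0.0603, and NHP2 without sh-B 4, sh-B 5, sh-C 2 or sh-C 3 at up to 0.0772. The count was 19 without sh-B 3, 4 without sh-B 4, 3 without sh-B 5 and 5 without sh-C 2 or sh-C 3, and it was 32 with sh-A 3, sh-B 3 and sh-C 1 omitted, 30 of them higher in sh-C, with a background of 46.5% (24.9% higher, 21.5% lower).

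Other genes of the same pathways were counted from lists that do not include the members. With sh-C the lists held rises and no falls: 11 of 44 other 40S assembly genes, 9 of 43 other 60S assembly genes, 4 of 15 other ribonucleoprotein genes, 3 of 15 other RNA polymerase I genes, 3 of 19 exosome and nuclease genes, 8 of 24 other polyamine and nucleotide genes and 5 of 20 RNA polymerase III genes. At an unadjusted p below 0.05 edgeR had 1 lower exosome or nuclease gene and 2 lower polyamine and nucleotide genes, and 0 lower in the other 5 lists. The medians of the lists were 0.17 to 0.31, against 0 for all tested genes, and the background of rises was 9.79%. TYMS, thymidylate synthase, rose from 86.6 to 180.3 CPM (1.06, SE 0.09, adjusted p = 8.84e-05). Among the 40S genes NOC4L rose by 0.83 (SE 0.12) and NOL6 by 0.65 (SE 0.09), and among the 60S genes EIF6, which keeps the subunits apart, rose by 0.69 (SE 0.11) and the helicase DDX54 by 0.60 (SE 0.08). With sh-A 3, sh-B 3 and sh-C 1 omitted the background was 22.5% higher and 20.3% lower, and 4 of the 7 lists held falls. In that fit 26 of the other 40S genes, 15 of the other 60S genes and 9 of the other ribonucleoprotein genes rose and 0 fell. The other RNA polymerase I genes had 7 rises and 1 fall, the exosome and nuclease genes 8 and 1, the other polyamine and nucleotide genes 14 and 3, and the RNA polymerase III genes 10 and 1.

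With sh-B the 40S list had 11 rises and 0 falls and the 60S list 6 rises and 3 falls, where 15% of all tested genes rose and 15% fell, so that the 60S share of rises was near the background. Rises and falls were 2 and 2 among the other RNA polymerase I genes, 4 and 1 among the ribonucleoprotein genes, 4 and 1 among the exosome and nuclease genes, 3 and 3 among the polyamine and nucleotide genes, and 4 and 2 among the RNA polymerase III genes. URB1, a 60S factor, rose by 0.61 (SE 0.10, adjusted p = 0.000632), the helicase DDX49 by 0.60 (SE 0.11, adjusted p = 0.00133), and POLR2H, a subunit shared by the RNA polymerases, by 0.75 (SE 0.07, adjusted p = 2.15e-05). XRN2, the nuclease that trims rRNA ends, fell by 0.68 (SE 0.08, adjusted p = 0.000101). In the fit that omitted sh-A 3, sh-B 3 and sh-C 1, 12 of the 40S genes rose and 8 fell, and 10 of the 60S genes rose and 9 fell, against a background of 23.6% higher and 23.4% lower. In the other 5 lists, in the order above, that fit had 2 rises and 5 falls, 6 and 2, 6 and 5, 4 and 5, and 6 and 5.

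With sh-A 6 of the 40S genes rose and 2 fell, 4 of the 60S genes rose and 1 fell, and 4 of the polyamine and nucleotide genes rose and 6 fell. The background was 14.4% higher and 12.3% lower, so the 40S and 60S shares did not exceed it in either direction. Among the RNA polymerase III genes 6 rose and 0 fell, and among the exosome and nuclease genes 3 rose and 0 fell (0 and 1 lower at an unadjusted p below 0.05 by edgeR), while 2 RNA polymerase I genes and 1 ribonucleoprotein gene fell and 0 rose. HEATR1, a processome scaffold, rose by 0.62 (SE 0.09, adjusted p = 0.000525) and DHX37 by 0.75 (SE 0.10, adjusted p = 0.000242). OAZ1, the antizyme that marks ornithine decarboxylase for breakdown, fell with sh-A by 1.51 (SE 0.09, adjusted p = 1.49e-06), CMPK1, a pyrimidine nucleotide kinase, by 1.78 (SE 0.11, adjusted p = 1.49e-06) and SNU13, a core protein of the box C/D particles, by 0.76 (SE 0.08, adjusted p = 6.24e-05). After omission of sh-A 3, sh-B 3 and sh-C 1, 7 of the 40S genes rose and 17 fell with sh-A, 6 of the 60S genes rose and 14 fell, and 5 of the polyamine and nucleotide genes rose and 12 fell, with a background of 23.8% higher and 22.2% lower. Rises and falls were then 3 and 4 among the RNA polymerase I genes, 1 and 4 among the ribonucleoprotein genes, 4 and 4 among the exosome and nuclease genes, and 7 and 3 among the RNA polymerase III genes.

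The authors' deposited tables give, for each gene and hairpin, a log2 ratio and a posterior probability of equal expression. In the authors' deposited table for sh-C, 28 members were higher and 0 lower at a probability below 0.05. Of all its genes 23.7% passed, and 13.5% passed as higher. For sh-B the authors' deposited table had 10 higher and 0 lower, where 28.3% of its genes passed, 14.3% as higher. For sh-A it had 7 higher and 2 lower, where 22% passed, 10.7% as higher. The members that passed in the authors' deposited tables were not all those edgeR called. For sh-A, the edgeR calls FBL (0.812), PPAT (0.24), POLR1A (0.292) and POLR1D (0.161) did not pass there. POLR1C, IMP4 and RRP12 passed there only. For sh-B, the edgeR calls RRP9 (0.644), ODC1 (0.597), RRP12 (0.113) and NOLC1 (0.105) did not pass there. POLR1A and PPAT passed there only. Each edgeR call with sh-C passed there too. By the authors' deposited tables, the members' median log2 ratio was 0.06 (sh-A), 0.17 (sh-B) and 0.37 (sh-C).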

How the data were processed

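The libraries were poly-A selected RNA, converted to cDNA with random primers and made into circular single strands that do not mark strand, per the labels' protocols. Bowtie2, HISAT, RSEM and build hg19 are named in the submitters' processing notes; for versions and annotation the sources used here give nothing. The authors deposited expected counts and FPKM per gene and library, and comparison tables with group means (a signal of unstated scaling, not used for results here), a log2 ratio and a posterior probability of equal expression, which is grouped with p-value columns but is not one. Genes were joined by NCBI gene ID, with symbols from the comparison tables or RefSeq.

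Expected counts were rounded, filtered (filterByExpr, minimum count 10), scaled by TMM and fitted with edgeR 4.0.16 (R 4.3.3), 1 mean per group over 12 libraries, with the quasi-likelihood F-test and Benjamini-Hochberg adjustment over 15592 genes; calls have adjusted p below 0.05, and SE is the fold change over the square root of F. The steps were tested on simulated data. Library totals of 15631500 to 28073400 set the counting precision, and a common biological coefficient of variation of 0.145 that between libraries. No 2 libraries held identical values. Alternatives used DESeq2 1.42.0, limma 3.58.1 on log2(FPKM + 1), other filters, scaling and samples.

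The main fit used no pairing, also for the differences of named genes between sh-B and sh-A. In the block fit alone, library numbers were treated as pairing sh-A with sh-B. There each same-number correlation of deviations exceeded 0.1 (0.35, 0.15 and 0.29 for numbers 3, 4 and 5). However, 2 unlike-number pairs exceeded that of number 4 (sh-A 5 with sh-B 4 at 0.24, sh-A 4 with sh-B 5 at 0.18). Pairing of numbers 4 and 5 is thus not shown. Control shares only number 3 with either. The members, the lists and the 3 libraries left out together were chosen with earlier results of these data known, although the rule for the members holds no measured value, so the members' shares beside the background describe them and do not test them. Named are the first 8 members called against control by adjusted p, the 3 highest by FPKM in control, the first of each role with sh-C, the first 5 between hairpins, up to 4 genes per other list and comparison, KAT5 and MYC.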

Additional observations from a re-analysis of the deposited data

Results flagged for a closer look

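Members whose response to 1 hairpin differed from that to another, by the test of the difference itself, are listed here as log2 differences. From sh-A to sh-B the response of NIP7 differed by 0.87, of WDR12 by 0.53 and of WDR74 by 0.5, all higher with sh-B, and of UTP20 by −0.66 and FBL by −0.7. From sh-A to sh-C the differences were 1.18 for NIP7, 0.65 for WDR12, 0.56 for WDR74, 0.45 for DDX56 and 0.51 for BOP1. From sh-B to sh-C they were 0.56 for NOB1, 0.7 for BOP1, 0.57 for SRM, 0.51 for DKC1 and 0.34 for NHP2. NIP7 and WDR12 fell with sh-A alone among the comparisons with control, and the difference to each of the other hairpins passed the test. The libraries of sh-A also differed in the epithelial markers and the sh-A transcripts given in the report, and the part of these in the differences was not tested.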

How the results depend on the processing

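When sh-A 3, sh-B 3 and sh-C 1 were left out together, the members called against control were 28 for sh-A, 23 for sh-B and 32 for sh-C, and between hairpins 26 (sh-B against sh-A), 35 (sh-C against sh-A) and 32 (sh-C against sh-B). With only the 2 groups compared in the fit, 29 were called for sh-C against control, 10 for sh-B against sh-A and 13 for sh-C against sh-A. With limma on FPKM 13 were called for sh-C against sh-A, and the median of the members with sh-C was 0.29. With the library number as a block, 28 members were called for sh-C against control, all higher. Of all genes in that fit 24.8% were called, 12.8% higher and 12% lower. These groups share only a number (correlations −0.10, −0.21 and 0.17). The same block gave 26 calls for sh-B against sh-A, where 49.2% of all genes were called. No paired fit was made for control with sh-A or sh-B, which share 1 number. After omission of sh-A 3 and sh-B 3 they share no number, so hairpin and library number cannot be told apart there. Leaving out 1 library gave 5 to 11 calls for sh-A, 4 to 10 for sh-B, 10 to 16 for sh-C, 11 to 22 for sh-B against sh-A, 11 to 31 for sh-C against sh-A and 3 to 19 for sh-C against sh-B. The share of all genes called is not given beside the counts of the 2-group, limma, DESeq2 and single-omission fits or those at an unadjusted p, here or above. A change in those counts can thus be shared by all genes. The causes were not tested. Other scaling, the DESeq2 test and other filters kept each count within 1.5 times, no called member changed sign under any single omission, and the order of levels was the same in TPM. Single genes at low CPM carry larger counting error.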
